A study of Rattus norvegicus with 23 samples.

Results

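In the livers of rats given 1 of 4 hepatotoxicants or a vehicle, 9 genes were followed that encode enzymes from acetoacetyl-CoA formation to lanosterol. They were Acat2, Mvk, Pmvk, Mvd, Idi1, Fdps, Fdft1, Sqle and Lss, which made up 9 of the 14217 genes that had a probe set annotated to them alone. Where a gene had several such probe sets, the one with the highest mean over the 23 samples stood for it. The treated samples entered that mean. All 9 genes were measured in all 23 samples, and none was lost to a filter.

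These enzymes build the sterol skeleton from acetyl-CoA. A cytosolic thiolase joins acetyl groups, mevalonate is formed and phosphorylated, the resulting isoprene units are condensed to farnesyl diphosphate and then to squalene, and squalene is oxidised and closed into lanosterol, from which cholesterol is made. In liver the genes of this pathway are known to share control by the membrane-bound transcription factor SREBP2, which is activated when sterols in the endoplasmic reticulum run low. The steps between the thiolase and mevalonate were not analysed here.

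Each sample was RNA from the left lateral liver lobe of a male Sprague Dawley rat that was 6 to 8 weeks old at the start and received 5 daily oral doses, with necropsy 24 h after the last dose and after an overnight fast. In the first in-life study alpha-naphthylisothiocyanate (ANIT, 100 mg/kg) was set against corn oil at 5 ml/kg. In the second, acetaminophen (APAP) at 1000 mg/kg had corn oil at 2 ml/kg as its vehicle. Diclofenac (DCLF) at 10 mg/kg, given in that same study, had water at 10 ml/kg. In the third, methylenedianiline (MDA, 100 mg/kg) was set against 35% ethanol at 2 ml/kg. Each group held 3 samples except water, which held 2, and the count of 3 rats for corn oil at 5 ml/kg rests on the number that opens each title, since the closing number is the same in all of them. ANIT and MDA are known to injure the bile ducts, and APAP and DCLF are drugs known to harm hepatocytes at high doses.

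Values are log2 expression values from robust multichip averaging (RMA) of a single-colour Affymetrix rat array, and each difference below is on that log2 scale with its standard error. Values of different probe sets cannot be set against each other as amounts of RNA, so levels are compared within a gene only. The sample medians ran from 8.95 to 9.02, and samples of a group correlated at 0.987 to 0.995. In 3 arrays, corn oil at 5 ml/kg replicate 2 and ANIT replicates 1 and 2, the top of the scale stood apart: their highest values were 14.57 to 14.97, against 15.86 to 15.99 in the other 20. Their 99th percentiles (13.17 to 13.20) lay inside the range of the others (13.13 to 13.33), and no value of the 9 genes was above 13.88. The mean of 11 hepatocyte markers, which are among the brightest genes, was 14.16 to 14.26 in these 3 arrays and 14.64 to 15.01 in the others. With so few arrays per group, precision is limited throughout. A gene was called when limma gave an adjusted p under 0.05 over 31042 probe sets and a fold change over 1.5, which is 0.58 on the log2 scale.

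ANIT raised the transcripts of all the genes followed. All 9 genes were called higher and 0 lower, against 3.84% of all genes called higher and 3.38% called lower, and the median log2 change of the 9 was 1.81 against -0.02 for all genes. In each of the 9 genes the 3 ANIT samples lay above the 3 corn oil samples, a separation seen upward in 14.1% of all genes. The 9 genes were chosen with earlier results of these data known. Shares of all genes, here and below, are therefore a description and no test of the 9. The smallest change was that of Fdft1 (0.64 ± 0.0888) and the largest that of Acat2 (2.94 ± 0.179).

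**Figure D1:**
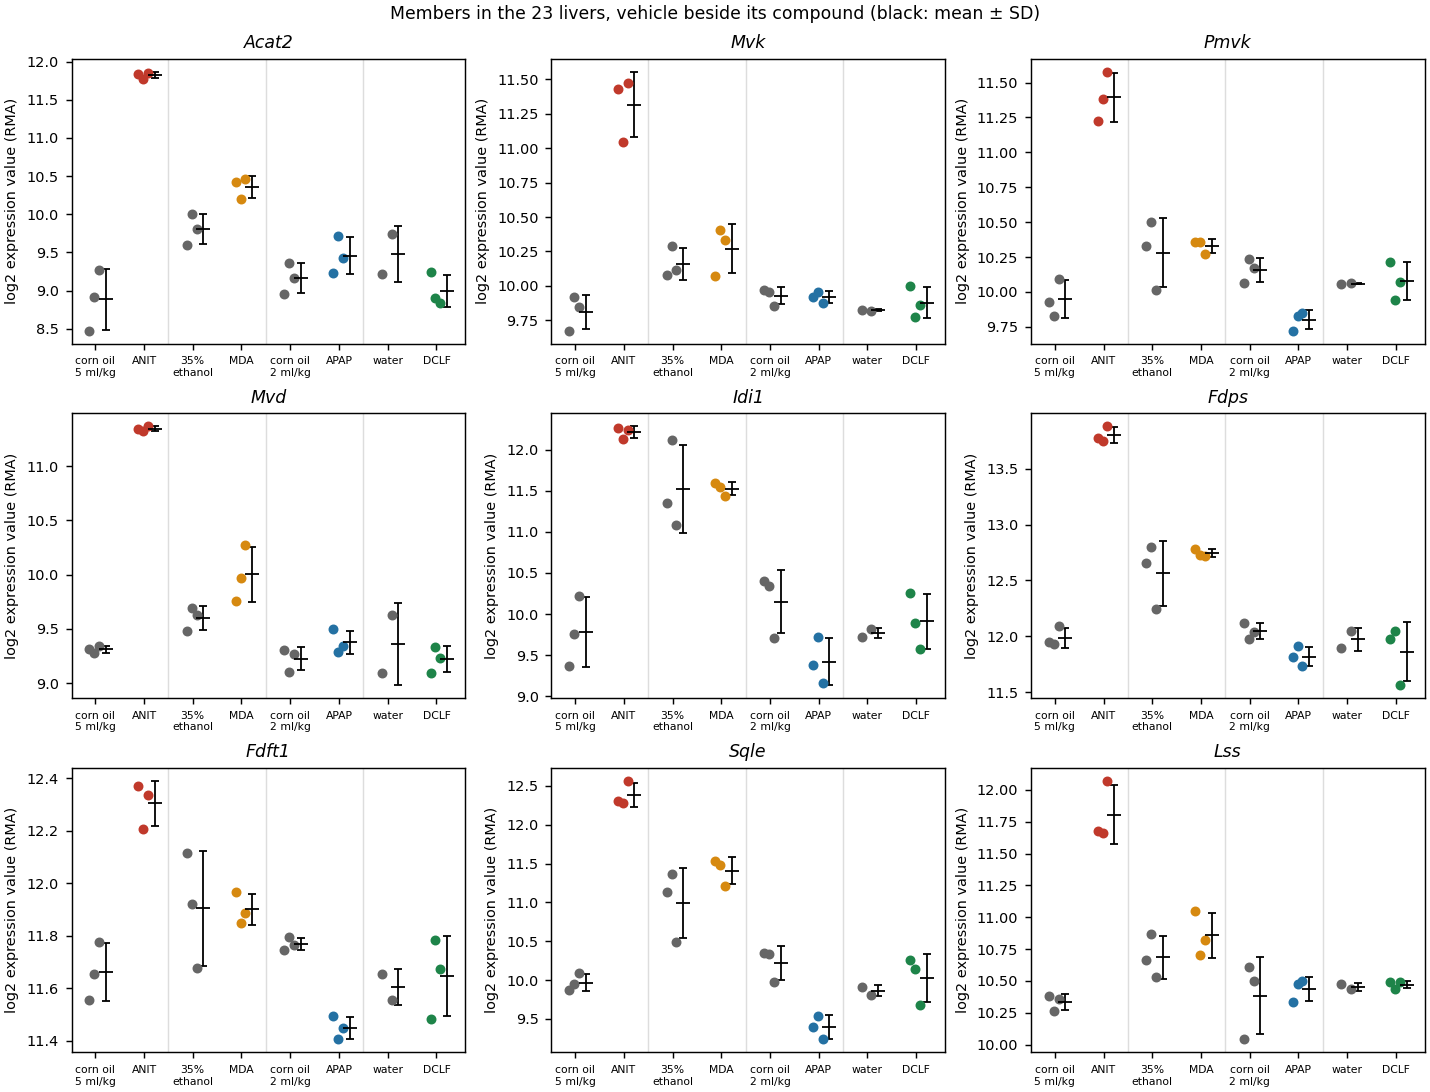
Log2 expression values of the 9 genes (1 panel each, own vertical axis) in the 23 liver samples, with each vehicle to the left of its compound. Each point is 1 rat and the black bar is the group mean ± SD (n = 3, water n = 2). In all 9 panels the ANIT points lie above every point of the other groups. The gap is least in Idi1, where the highest ethanol point is at 12.12 and the lowest ANIT point at 12.13. The share of all genes with this separation was not counted, and the groups differ in vehicle and study as well as in compound.

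The sequences upstream of these genes are shown because the genes moved together. Of the 9 genes, 6 had an entry in the RefSeq promoter table used here, which holds 250 bases before and 50 bases after the annotated start (build GRCr8): Acat2, Mvk, Mvd, Idi1, Fdps and Lss. Printed 5′ to 3′ on the strand of the gene are the windows of Acat2 (chr1:50100590-50100889, plus strand), which had the largest change, of Mvk (chr12:47819454-47819753, minus strand), which had the most CCAAT boxes, and of Idi1 (chr17:66547475-66547774, minus strand) and Fdps (chr2:176804767-176805066, minus strand). Capitals mark the CCAAT box (CCAAT, or ATTGG on the other strand) and the GC box (GGGCGG, or CCGCCC on the other strand).
Acat2: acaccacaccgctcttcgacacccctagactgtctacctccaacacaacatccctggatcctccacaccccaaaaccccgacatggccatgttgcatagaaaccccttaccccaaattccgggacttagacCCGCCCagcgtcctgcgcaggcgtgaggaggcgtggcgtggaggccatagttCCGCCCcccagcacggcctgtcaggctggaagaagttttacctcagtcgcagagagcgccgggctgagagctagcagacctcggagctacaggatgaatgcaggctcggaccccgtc
Mvk: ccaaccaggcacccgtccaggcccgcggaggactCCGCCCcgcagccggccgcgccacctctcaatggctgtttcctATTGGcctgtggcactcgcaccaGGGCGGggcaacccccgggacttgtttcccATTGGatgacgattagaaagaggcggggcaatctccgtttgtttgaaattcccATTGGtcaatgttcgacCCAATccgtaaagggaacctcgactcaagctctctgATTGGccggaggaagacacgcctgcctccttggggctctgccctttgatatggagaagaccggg
Idi1: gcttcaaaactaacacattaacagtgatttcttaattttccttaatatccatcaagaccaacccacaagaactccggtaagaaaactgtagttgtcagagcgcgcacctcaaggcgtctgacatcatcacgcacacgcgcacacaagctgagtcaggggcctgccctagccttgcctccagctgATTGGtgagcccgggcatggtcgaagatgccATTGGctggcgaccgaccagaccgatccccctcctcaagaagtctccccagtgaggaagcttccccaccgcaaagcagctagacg
Fdps: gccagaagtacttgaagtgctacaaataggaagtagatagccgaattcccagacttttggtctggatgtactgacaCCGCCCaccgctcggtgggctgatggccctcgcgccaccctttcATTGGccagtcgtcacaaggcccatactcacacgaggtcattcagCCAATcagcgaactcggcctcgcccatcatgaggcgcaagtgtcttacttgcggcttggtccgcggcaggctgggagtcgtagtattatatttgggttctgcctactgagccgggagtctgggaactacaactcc

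A CCAAT box, the site of the factor NF-Y, stood in 5 of the 6 windows (Acat2 had none) and in 37.5% of 33469 rat promoters of the same length. Mvk held 5 of them, which began at positions -173 to -14 from the start, and Idi1, Fdps and Mvd held 2 each. A GC box, read by factors of the Sp1 family, stood in 5 of the 6 windows (Idi1 had none) and in 33.1% of all promoters, or 41.8% of the 21851 promoters of coding genes. The GC content of the 6 windows ran from 53.7% to 68.7%, beside a median of 51.7% for all promoters. The letters TCACNCCAC, a form of the sterol regulatory element, were found in 0 of the 6 windows on either strand and in 1.12% of all promoters, and the E-box CACGTG in 0 of 6 and in 6.42%. A missing match says only that these letters are not in the window.

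**Figure D2:**
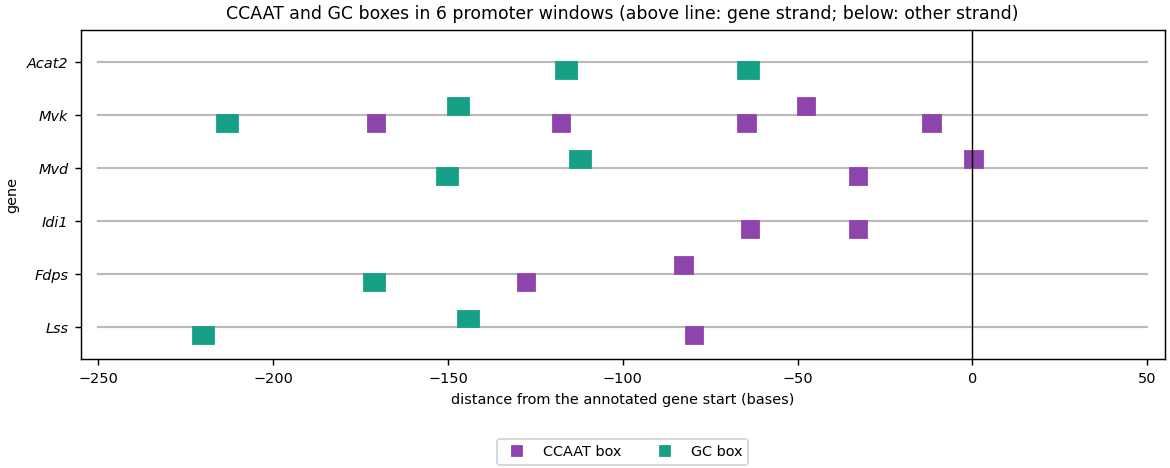
Positions of CCAAT boxes (purple) and GC boxes (green) in the promoter windows of the 6 genes that had an entry, in bases from the annotated gene start, with matches on the gene's own strand above each line and on the other strand below. The 5 CCAAT boxes of Mvk spread over the window, and Acat2 shows GC boxes and no CCAAT box.

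The thiolase transcript stood furthest from its vehicle. Acat2, the cytosolic enzyme that joins acetyl groups into acetoacetyl-CoA, measured 8.47, 8.92 and 9.27 in the corn oil samples and 11.84, 11.78 and 11.85 in the ANIT samples. The ANIT samples lay within 0.1 of each other and far above the spread of the vehicle. Acat2 rose 7.66-fold (2.94 ± 0.179, adjusted p = 0.00022).

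The transcripts of the mevalonate-phosphorylating enzymes rose by less. Mvk, which adds the first phosphate to mevalonate, measured 9.68, 9.92 and 9.84 with corn oil and 11.43, 11.04 and 11.48 with ANIT, a rise of 1.504 ± 0.13 (adjusted p = 0.000826). Pmvk, which adds the second phosphate, measured 9.93, 9.83 and 10.09 with corn oil and 11.23, 11.38 and 11.58 with ANIT, a rise of 1.45 ± 0.114 (adjusted p = 0.000631). In both genes the gap between the groups was wider than either group's range. Mvd, the decarboxylase that makes isopentenyl diphosphate, measured 9.32, 9.27 and 9.34 with corn oil and 11.35, 11.33 and 11.37 with ANIT. Both groups were tight, and Mvd had the lowest adjusted p of the 9 genes (2.03 ± 0.0693, 4.10-fold, adjusted p = 2.58e-05).

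The prenyl steps followed. Idi1, the isomerase that turns isopentenyl into dimethylallyl diphosphate, measured 9.37, 9.76 and 10.21 with corn oil and 12.26, 12.13 and 12.24 with ANIT. The vehicle samples were spread out and the ANIT samples were not, and Idi1 rose 5.38-fold (2.43 ± 0.19, adjusted p = 0.000627). Fdps, which condenses these units to farnesyl diphosphate, measured 11.94, 11.93 and 12.09 with corn oil and 13.78, 13.75 and 13.88 with ANIT, and rose by 1.81 ± 0.0824 (adjusted p = 8.52e-05).

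Of the squalene steps, the first moved least. Fdft1, squalene synthase, measured 11.56, 11.65 and 11.78 with corn oil and 12.37, 12.21 and 12.34 with ANIT, a rise of 0.64 ± 0.0888 (1.56-fold, adjusted p = 0.0048) that was just past the fold threshold. Sqle, squalene epoxidase, a rate-limiting enzyme of sterol synthesis, measured 9.87, 9.95 and 10.09 with corn oil and 12.31, 12.28 and 12.57 with ANIT. The lowest ANIT sample was more than 2 log2 units above the highest vehicle sample, and Sqle rose 5.35-fold (2.42 ± 0.105, adjusted p = 7.2e-05). Lss, which closes oxidosqualene into lanosterol, measured 10.38, 10.26 and 10.36 with corn oil and 11.68, 11.66 and 12.07 with ANIT, a rise of 1.47 ± 0.12 (adjusted p = 0.000708).

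The calls in ANIT livers held with every sample left out in turn, in 54 of 54 values. Without all 3 arrays of low top values, an alternative chosen after seeing the data that left 2 corn oil samples and 1 ANIT sample, 9 of 9 were still called, with changes from 0.67 (Fdft1, adjusted p = 0.0456) to 2.98 (Acat2, adjusted p = 0.013). The lone ANIT sample is assumed there to vary like the vehicle. With the methods' t-test (two-sided) and a Benjamini-Hochberg adjustment the calls of Mvk and Idi1 (both adjusted p = 0.0512) and of Fdft1 (adjusted p = 0.0625) were lost. The difference between the 3′ and 5′ GAPDH control probe sets, a sign of RNA quality, was 0.63 to 0.71 in ANIT samples and 0.74 to 0.83 in their vehicle, and its part in these results was not tested.

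**Figure D3:**
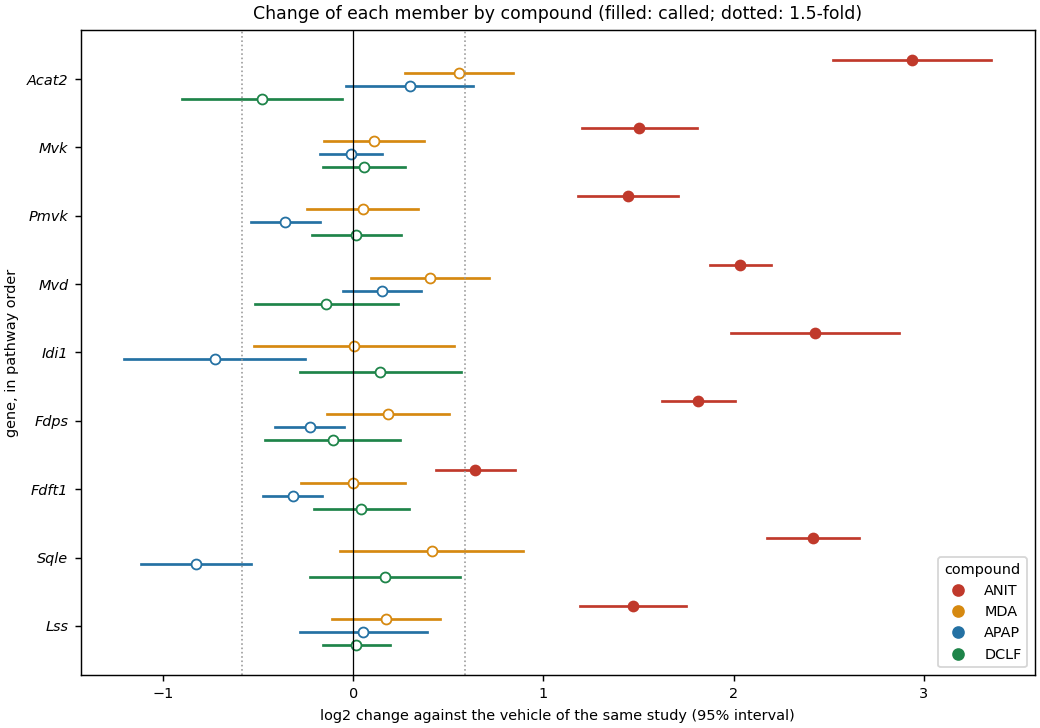
Log2 change of each gene against the vehicle of the same study, in pathway order from top to bottom, for ANIT, MDA, APAP and DCLF; lines are 95% intervals from limma, filled points were called and dotted lines mark a 1.5-fold change. All 9 ANIT points are filled and lie between 0.64 and 2.94, and every point of the other compounds is open.

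Genes with more than 1 probe set gave the same direction in ANIT livers with 1 exception. The second probe sets of Idi1 (2.68 ± 0.206), Fdft1 (1.06 ± 0.133) and Lss (2.02) were called higher too, each with a larger change than the probe set that stood for the gene. Of the 3 probe sets of Mvk, the second was called higher at 1.33 and the third was not called, at -0.13. Taking the mean of all its probe sets, Mvk rose by 0.90.

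**Figure D4:**
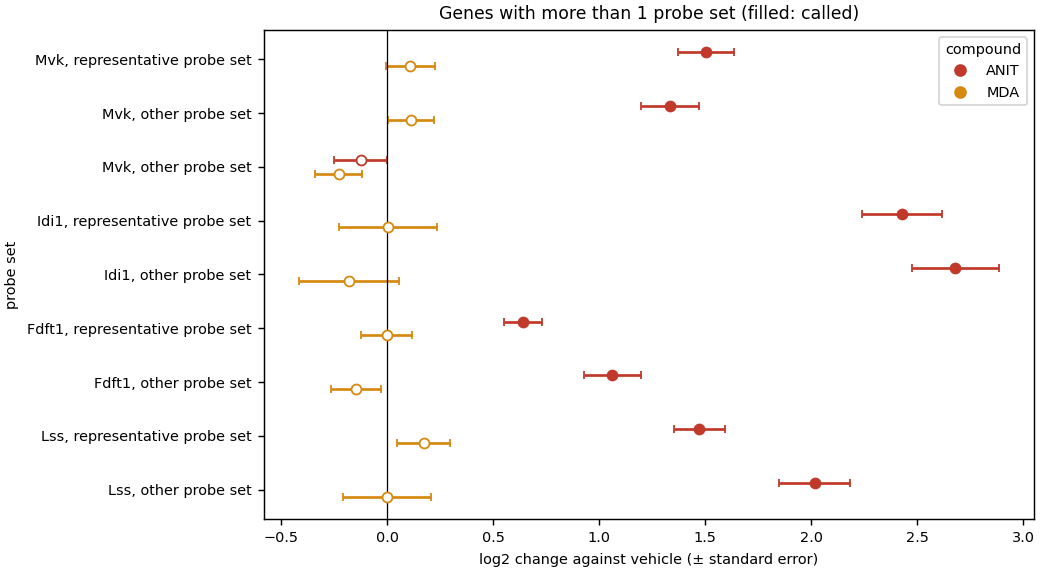
Log2 change ± standard error of each probe set of the genes that had more than 1, in ANIT livers (red) and MDA livers (orange), with filled points called. The third Mvk probe set lies near 0 with ANIT while the other 8 lie between 0.64 and 2.68, and no MDA point is filled.

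With MDA no change of the same genes from the ethanol vehicle was called. Limma called 0 of 9, against 4.9% of all genes called higher and 4.23% lower, 2 of 9 had an unadjusted p under 0.05 (Acat2 and Mvd), against 31.8% of all genes, and the methods' t-test at its unadjusted threshold also called 0 of 9, against 3.58% of all genes higher and 2.75% lower. The median log2 change was 0.17. Acat2 measured 9.60, 9.9997 and 9.81 with ethanol and 10.42, 10.20 and 10.46 with MDA. These samples did not overlap, and the change of 0.56 ± 0.124 passed the adjusted p (0.0219) but not the fold threshold. It was past both without ethanol replicate 2 (0.66), without MDA replicate 2 (0.64) and under quantile normalization (0.60).

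Mvd measured 9.48, 9.69 and 9.63 with ethanol and 9.76, 9.97 and 10.27 with MDA, a change of 0.40 ± 0.136 (adjusted p = 0.0961). Acat2 and Mvd were the 2 of 9 genes whose MDA samples all lay above the ethanol samples, a separation seen in 17.1% of all genes. Sqle measured 11.13, 11.36 and 10.49 with ethanol and 11.54, 11.48 and 11.21 with MDA, where the groups overlapped (0.41 ± 0.209, adjusted p = 0.271). The remaining genes had changes of -0.00303 (Fdft1) to 0.18 (Fdps), with adjusted p of 0.467 or more. The 95% intervals, which are not adjusted over probe sets, reached past the fold threshold in Acat2 (0.27 to 0.84), Mvd (0.09 to 0.71) and Sqle (-0.07 to 0.89). Rises of more than 1.5-fold in these genes are therefore not excluded. The interval of Idi1 ran from -0.52 to 0.53, and those of Mvk, Pmvk, Fdps, Fdft1 and Lss also stayed within the fold threshold. A call needed the adjusted p as well as the fold threshold, so smaller differences could have been missed in any of the genes.

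The ethanol vehicle itself lay high. Beside the other 8 vehicle samples, the mean of the 3 ethanol samples was higher in all 9 genes, by a median of 0.31 against 0.01 for all genes. In 4 genes (Mvk, Idi1, Fdps and Sqle) every ethanol sample lay above all 8, which held for 1.63% of all genes. Idi1 was furthest apart: the ethanol samples ran from 11.09 to 12.12 and the other vehicles from 9.37 to 10.40, with means 1.60 apart. Sqle ran from 10.49 to 11.36 with ethanol and from 9.81 to 10.35 with the other vehicles, with means 0.96 apart.

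The vehicle and the study cannot be told apart here, since ethanol was given in a single study, and no test was made between vehicles of different studies. The GAPDH 3′ to 5′ difference was 0.82 to 0.91 in ethanol samples, 0.78 to 0.96 in MDA samples and 0.70 to 0.83 in the other vehicles, and its part was not tested. In all 9 genes every MDA sample lay above all 8 vehicle samples of the other studies, and every ANIT sample lay above every MDA sample. The share of all genes with these separations was not counted, so they cannot be read as particular to the 9 genes. For Acat2 the group means ran from ANIT (11.82) over MDA (10.36) and ethanol (9.80) to water (9.48), APAP (9.46), corn oil at 2 ml/kg (9.16), DCLF (8.99) and corn oil at 5 ml/kg (8.89). The samples of ANIT, MDA and ethanol did not overlap each other, while each later group in that order overlapped its neighbour.

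APAP gave lower values in part of the pathway. Limma called 0 of 9 genes, against 0.0844% of all genes called lower and 0.239% higher, 5 of 9 had an unadjusted p under 0.05, against 11.6% of all genes, and the median log2 change was -0.23. Sqle measured 10.35, 10.33 and 9.97 with corn oil and 9.40, 9.54 and 9.24 with APAP. The groups did not overlap, and the change of -0.83 ± 0.125 missed the adjusted p (0.0627). It was called lower when all 23 samples entered the model (adjusted p = 0.0357), when probe sets below the 25th percentile of the mean value were left out (adjusted p = 0.0413), by the methods' t-test with an unadjusted threshold (0.183% of all genes lower, 0.352% higher), and without corn oil replicate 3 (-0.95).

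Pmvk, Fdps and Fdft1 also had all APAP samples below all corn oil samples, so that 4 of 9 genes were separated downward, against 7.09% of all genes. Pmvk measured 10.06, 10.24 and 10.17 with corn oil and 9.72, 9.83 and 9.85 with APAP (-0.36 ± 0.0782, adjusted p = 0.174). Fdft1 measured 11.75, 11.79 and 11.76 with corn oil and 11.49, 11.41 and 11.45 with APAP (-0.32 ± 0.0667, adjusted p = 0.154). For both, the shift was small and its samples tight. The second probe set of Fdft1 changed less with APAP, at -0.09 ± 0.123 (adjusted p = 0.845). Idi1 measured 10.40, 10.34 and 9.71 with corn oil and 9.39, 9.72 and 9.16 with APAP, where the third corn oil sample lay just below the second APAP sample (-0.73 ± 0.206, adjusted p = 0.291). Acat2 was not lower, at 0.30 ± 0.144 (adjusted p = 0.532).

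With DCLF no member moved past the test. Limma called 0 of 9, against 0% of all genes, 1 of 9 had an unadjusted p under 0.05, against 11.8% of all genes, and the methods' t-test called 0 of 9, against 0.00703% of all genes higher and 0.0281% lower. The gene in question was Acat2, at 9.22 and 9.74 with water and 9.24, 8.91 and 8.84 with DCLF, with overlapping samples (-0.48 ± 0.179, adjusted p = 0.355). The 9 changes ran from -0.48 to 0.17 with a median of 0.02. Corn oil at 2 ml/kg against water, which shares its animals with both comparisons above, also gave 0 of 9 called by limma (0% of all genes) and by the methods' t-test (0.00703% of all genes higher, 0.0352% lower), with 1 at an unadjusted p under 0.05 (6.02% of all genes), Sqle (0.36 ± 0.13, adjusted p = 0.734). In 4 of 9 genes (Mvk, Pmvk, Fdft1 and Sqle) all corn oil samples lay above both water samples, against 7.92% of all genes. The other probe sets of these genes changed by 0.09 and -0.03 for Mvk and by -0.21 for Fdft1, and none of them was called.

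The difference between the compounds' effects was then tested itself, each compound taken against its own vehicle. The ANIT effect was called larger than the MDA effect in 8 of 9 genes, against 0.71% of all genes, with Idi1 (2.42 ± 0.332, adjusted p = 0.00549) and Acat2 (2.38 ± 0.234, adjusted p = 0.000813) furthest apart. The difference in Idi1 includes unlike vehicle levels, with means of 11.52 for ethanol and 9.78 for corn oil at 5 ml/kg. The treated livers themselves had Idi1 means of 11.52 with MDA and 12.21 with ANIT. Fdft1 differed by 0.65 ± 0.152 and missed the adjusted p (0.0659), though its second probe set was called (1.21 ± 0.187, adjusted p = 0.0105). Without the 3 arrays of low top values 7 of 9 were called, and Idi1 (2.44, adjusted p = 0.0533) missed the adjusted p. The ANIT effect was called larger than the APAP effect in 9 of 9 genes, against 3.18% of all genes, most in Sqle (3.25 ± 0.173, adjusted p = 2.82e-06) and Idi1 (3.16 ± 0.31, adjusted p = 0.000154).

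The MDA effect exceeded the APAP effect in 1 of 9 genes, against 3.9% of all genes. That gene was Sqle, at 0.41 for MDA and -0.83 for APAP (difference 1.24 ± 0.27, adjusted p = 0.0181). APAP and DCLF effects differed in 0 of 9 genes by limma, against 0.134% of all genes called higher and 0% lower, with 5 of 9 at an unadjusted p under 0.05, against 13.6% of all genes. The widest of these was again Sqle, at -0.99 ± 0.227 with a 95% interval of -1.49 to -0.50 (adjusted p = 0.141). These differences share the same compound and vehicle samples and are not independent of each other.

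Transcripts of the steps after lanosterol rose with the members in ANIT livers. Of 9 genes measured from lanosterol to cholesterol, 8 were called higher and 0 lower, with a median of 0.86 against -0.02 for all genes. Msmo1, a sterol methyl oxidase (2.32 ± 0.126), Cyp51, lanosterol demethylase (1.80 ± 0.118), Hsd17b7, a sterol ketoreductase (1.59 ± 0.185) and Ebp, a sterol isomerase (0.86 ± 0.119) changed most. In MDA livers limma called 0 of the 9 higher and 1 lower, Hsd17b7 (-1.09 ± 0.152, adjusted p = 0.00316). Nsdhl (-0.49, adjusted p = 0.0242) and Ebp (-0.52, adjusted p = 0.028) passed the adjusted p but not the fold threshold. An unadjusted p under 0.05 was seen in 4 of the 9, against 31.8% of all genes, among them Lbr, which lay higher (0.28). The mean of Hsd17b7 was 10.60 with ethanol, 9.50 with MDA and 9.79 to 10.02 with the other vehicles. In APAP livers limma called 1 lower, Cyp51 (-0.61 ± 0.0864, adjusted p = 0.0488). With APAP, 6 of the 9 had an unadjusted p under 0.05, all of them lower, against 11.6% of all genes. The methods' t-test at its unadjusted threshold called 2, against 0.183% of all genes lower and 0.352% higher. In DCLF livers limma called 0 (1 at an unadjusted p under 0.05, 0 by the methods' t-test).

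Among 10 measured genes of SREBP control and sterol handling, 2 were called higher and 1 lower with ANIT. Insig1, an anchor that holds SREBP in the endoplasmic reticulum and is itself an SREBP target, rose from 11.82 (SD 0.0037) to 13.41 (SD 0.237), by 1.59 ± 0.119. Srebf2, which encodes SREBP2, rose by 0.65 ± 0.0792, and Insig2, the second anchor, fell by 1.34 on the log2 scale. With MDA, Insig1 (0.39 ± 0.157, adjusted p = 0.154) and Srebf2 (0.16 ± 0.104, adjusted p = 0.425) were not called, while Insig2 (-1.40 ± 0.182) and the sterol carrier Stard4 (-0.74 ± 0.1) were lower than with ethanol. The mean of Stard4 was 11.40 with ethanol, 10.66 with MDA and 10.54 to 10.79 with the other vehicles. With APAP, Insig1 was at -0.88 ± 0.215 (adjusted p = 0.221) and Srebf2 at -0.07 ± 0.0745. With DCLF both lay at -0.08.

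No gene of the isoprenoid branch or of the mitochondrial thiolase and ketone body list was called higher with ANIT or MDA. Of 12 genes of the isoprenoid branch, which draws on farnesyl diphosphate for dolichol, ubiquinone and protein prenylation, limma called 0 with ANIT (4 at an unadjusted p under 0.05, against 28% of all genes, 0 by the methods' t-test, median -0.13) and 1 lower with MDA, Pdss2 (-0.60 ± 0.119). Of the 4 with ANIT, Fnta (0.26) and Fntb (0.23) lay higher, and Pdss2 (-0.37) and Nus1 (-0.29) lay lower. All 4 measured genes of the mitochondrial thiolase and ketone body list fell with ANIT: Bdh1 (-1.21 ± 0.105), Acat1, the mitochondrial counterpart of Acat2 (-0.99 ± 0.102), Acaa2 (-0.85 ± 0.143) and Hadhb (-0.70 ± 0.0919). With MDA 3 of these 4 were called lower, Acat1 among them (-1.01 ± 0.123). Hadhb (-0.54 ± 0.0864, adjusted p = 0.00549) passed the adjusted p there but not the fold threshold.

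Of 11 genes for sterol use and export, 1 was called higher and 3 lower with ANIT. The bile acid synthesis enzyme Cyp7a1 rose (2.85 ± 0.491, adjusted p = 0.0114), although its corn oil samples spread from 8.71 to 10.72. Abcg5 (-2.45 ± 0.193) and Abcg8 (-1.09 ± 0.178), whose products pair to export sterols into bile, fell, as did the cholic acid enzyme Cyp8b1 (-1.08 ± 0.198). The mean of Abcg5 was 11.80 with corn oil at 5 ml/kg, 9.35 with ANIT and 10.20 to 10.90 with the other vehicles. That of Abcg8 was 8.98 with corn oil at 5 ml/kg, 7.89 with ANIT and 8.03 to 8.38 with the other vehicles. With MDA 0 were called higher and 3 lower, Cyp8b1 (-3.49 ± 0.253), the cholesterol ester hydrolase Nceh1 (-1.02 ± 0.229) and Abcg5 (-0.98 ± 0.158).

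**Figure D5:**
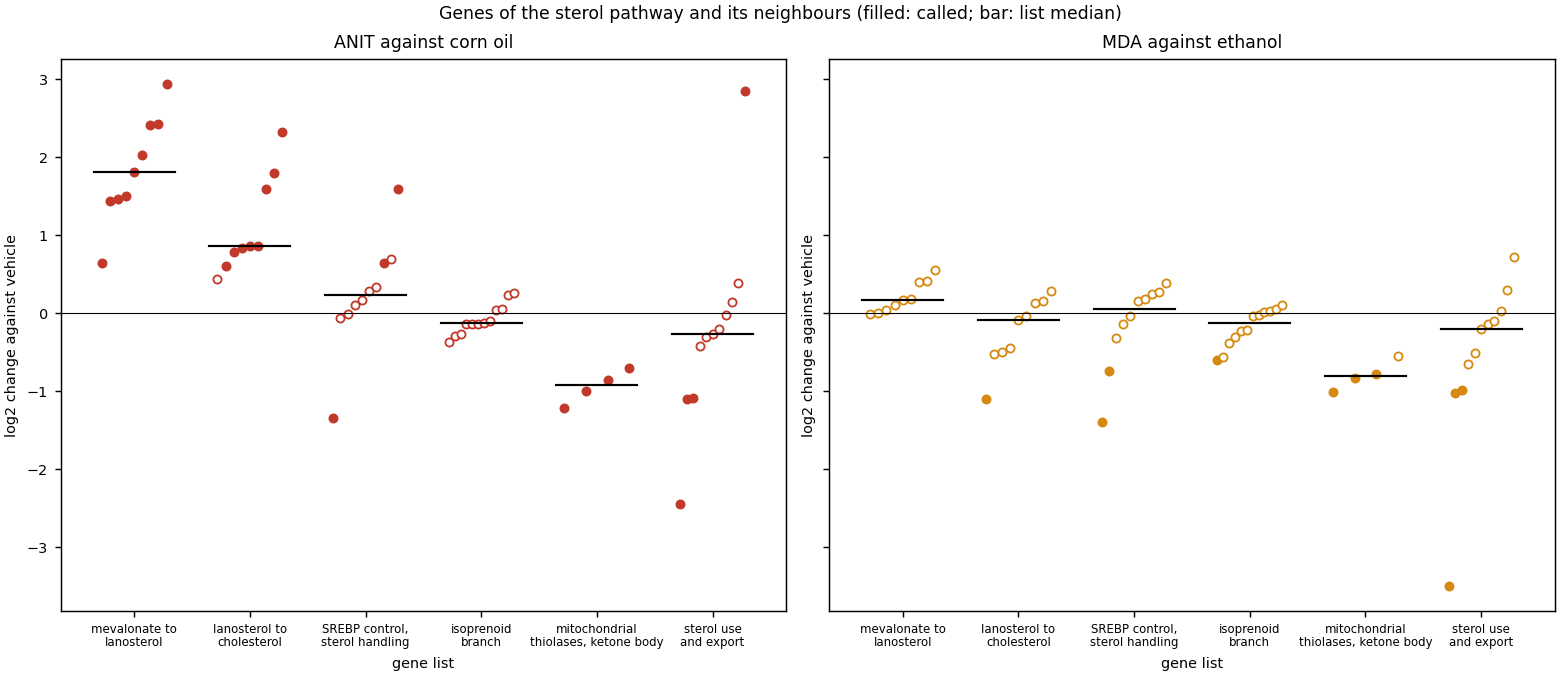
Log2 changes in ANIT livers (left) and MDA livers (right) for the 9 genes and for neighbouring gene lists, with filled points called and a black bar at each list's median. With ANIT the lists before and after lanosterol have medians of 1.81 and 0.86 and the other lists lie lower; with MDA the medians of both are 0.17 and -0.08.

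Cell type markers moved too. Of all genes, 3.84% were called higher and 3.38% lower with ANIT, and 4.9% and 4.23% with MDA. An unadjusted p under 0.05 was seen in 28% with ANIT and 31.8% with MDA. With ANIT, 2 of 10 cholangiocyte markers were called higher (Epcam 2.16, Sctr 0.66) and 0 lower, and Krt19 measured 0.86 ± 0.329 (adjusted p = 0.161). The mean of Epcam was 9.61 with corn oil at 5 ml/kg, 11.77 with ANIT and 10.26 to 10.47 with the other vehicles. Aqp1, Slc4a2 and Spp1 had lower means with ANIT (9.97, 10.84 and 9.32) than with corn oil (10.08, 11.28 and 9.34). Of 10 macrophage markers, 3 were higher and 1 lower. With MDA, 3 of 10 cholangiocyte and 8 of 10 macrophage markers were higher and 0 of either lower, and Krt19 measured 0.51 ± 0.144 (adjusted p = 0.0541). Aqp1 and Slc4a2 had lower means with MDA (10.08 and 10.67) than with ethanol (10.19 and 11.14). The mean of the macrophage markers ran from 10.9996 to 11.08 with corn oil and from 11.03 to 11.48 with ANIT, and from 10.54 to 10.85 with ethanol and from 11.58 to 11.84 with MDA. Of 11 hepatocyte markers, limma called 0 with ANIT (1 at an unadjusted p under 0.05, 0 by the methods' t-test, median -0.24), where the 3 arrays of low top values spread the marker mean from 14.21 to 14.96 with corn oil and from 14.16 to 15.01 with ANIT, and 1 higher and 3 lower with MDA. Of 12 stellate cell and matrix markers, 4 were higher and 1 lower with ANIT and 6 were higher and 2 lower with MDA, and of 6 neutrophil markers limma called 0 with either (3 at an unadjusted p under 0.05 with each, 0 by the methods' t-test). In bulk tissue fewer cells of a type and less RNA per cell cannot be told apart, and the part of cell makeup in the changes of the 9 genes was not tested.

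Over all 23 samples the mean of the 9 standardised genes was followed most closely by Msmo1 (Pearson r = 0.976) and Cyp51 (0.952) of the later sterol steps, and then by Zwilch (0.947), Atg16l2 (0.942) and Ube2c (0.935), chosen as the 5 highest of 14208 other genes. These correlations describe samples that share group differences. Zwilch rose by 0.92 and Ube2c by 1.98 with ANIT.

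Some of the 9 genes also varied together inside the groups. After each group mean was taken out, the 36 pairs of genes had a median correlation of 0.25 (range -0.27 to 0.85) over the 23 samples in 8 groups, 29 of them above 0, beside a median of -0.04 between the 9 genes and all other genes. Fdps with Sqle (0.85), Idi1 with Sqle (0.82) and Idi1 with Fdps (0.69) were the closest pairs. Mvd stood aside, with a mean correlation of -0.06 with the other members. These are descriptions over arrays that share group and processing, and no test was made of them.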

How the data were processed

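Liver RNA of 23 rats, 5 µg per sample, had been hybridised to Affymetrix rat arrays. The authors deposited log2 values made by RMA in Array Studio, and no step was added to them. Of 31099 probe sets 57 controls were left out; of the 31042 tested, 20826 named a single gene, 436 several and 9780 none. Names came from the platform annotation and a RefSeq table (GRCr8), in which 20758 of the single-gene probe sets were found.

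Groups were taken from sample labels. Tests used limma 3.58.1 in R 4.3.3 on the compared groups only (4 groups for a difference of effects), two-sided, with Benjamini-Hochberg adjustment over all tested probe sets. P-values measure the spread between the sampled rats. The smallest exact p is 0.1 for 3 against 3 samples and 0.2 for 3 against 2, so no exact test was used. The scripts were tested on simulated data. From each neighbouring list, at most the 4 called genes with the largest change were named, plus Insig1, Srebf2 and Krt19. The members and lists were chosen with earlier results of these data known. Alternatives were quantile normalization, median centring, all samples in 1 model, the mean of a gene's probe sets, leaving out the dimmest 25% of probe sets, the methods' t-test (equal variances, unadjusted p under 0.01 or Benjamini-Hochberg, with the same fold) and leaving out each sample. Leaving out the 3 arrays whose highest value was under 15 was added after seeing the data. Sequencing values were not analysed here.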

Additional observations from a re-analysis of the deposited data

Results flagged for a closer look

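The effects of compounds differed by the test of the difference itself for the genes given here. On the log2 scale, ANIT exceeded MDA by 2.38 in Acat2, 1.39 in Mvk, 1.40 in Pmvk, 1.63 in Mvd, 2.42 in Idi1, 1.63 in Fdps, 2.01 in Sqle and 1.30 in Lss. ANIT exceeded APAP by 2.64 in Acat2, 1.52 in Mvk, 1.80 in Pmvk, 1.88 in Mvd, 3.16 in Idi1, 2.04 in Fdps, 0.96 in Fdft1, 3.25 in Sqle and 1.42 in Lss. MDA exceeded APAP by 1.24 in Sqle. The compounds were given in different in-life studies, each beside its own vehicle, so the compound and the study cannot be told apart. The level of the ethanol vehicle, which lay high in these genes, enters each difference that involves MDA. No group had 4 or more samples, so no sample was tested for standing apart from its group.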

How the results depend on the processing

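No paired analysis was possible because the treated and vehicle animals were different rats and replicate numbers follow only the order of samples. In ANIT livers every change kept its direction, and 3 of 72 values under other settings lost the call, all with the methods' t-test after adjustment.

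The number of members called higher with MDA was 1 under quantile normalization and 0 to 1 with a sample left out. The number called lower with APAP was 1 with all 23 samples in 1 model, without probe sets below the 25th percentile and by the methods' t-test at its unadjusted threshold, and 0 to 1 with a sample left out. Fdft1 was called in ANIT minus MDA with all 23 samples in 1 model (0.65), as the mean of its probe sets (0.93) and without ethanol replicate 3 (0.76). Without the 3 arrays of low top values, chosen after seeing the data, the calls numbered 9 with ANIT, 7 for ANIT minus MDA and 9 for ANIT minus APAP. Leaving out a water sample left a single one, assumed to vary like the other groups.

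Changes of direction fell on members that were not called, and their cause was not tested. With the mean of all probe sets of a gene, Mvk was -0.00214 and Idi1 -0.0883 with MDA, Mvk 0.0569 and Lss -0.000917 with APAP, Fdft1 -0.0969 and Lss -0.138 with DCLF, Fdft1 -0.0214 for corn oil against water, and Mvk -0.0590 for MDA minus APAP and 0.0102 for APAP minus DCLF. Median centring gave -0.00357 for Idi1 with MDA, and quantile normalization gave 0.0596 for Fdft1 with MDA and -0.0502 for Lss in APAP minus DCLF. With a sample left out, MDA values ran from -0.0851 to 0.157 in Pmvk, -0.212 to 0.303 in Idi1 and -0.117 to 0.102 in Fdft1. APAP values ran from -0.0480 to 0.0107 in Mvk and -0.1196 to 0.166 in Lss. DCLF values ran from -0.0050 to 0.107 in Mvk, -0.0537 to 0.0835 in Pmvk, -0.409 to 0.127 in Mvd, -0.0302 to 0.308 in Idi1, -0.203 to 0.0407 in Fdps, -0.0251 to 0.124 in Fdft1 and -0.00457 to 0.0376 in Lss. Corn oil against water ran from -0.406 to 0.131 in Mvd and -0.185 to 0.101 in Lss, and APAP minus DCLF from -0.136 to 0.150 in Lss.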
